A study of Mus musculus with 8 samples.

Results

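Zbp1 and 9 other genes with which a cell recognises RNA or DNA in its cytosol were examined in CD11b+ brain cells of CSF1 OE mice, which overexpress the growth factor CSF1, and of control mice. The genes were taken by symbol from a list: the RNA sensors Ddx58, Ifih1 and Dhx58 with their adapter Mavs, the Z-form nucleic acid sensor Zbp1 with the RNA editing enzyme Adar, the DNA sensors Aim2 and Ifi204, the adapter Tmem173 and the DNA exonuclease Trex1. All 10 were present among the 20308 genes of the count files, and all 10 were among the 13407 genes that passed the filter on low counts. Zbp1 rose 4.17-fold and Dhx58 rose 2.73-fold in CSF1 OE mice compared to controls, and none of the other 8 passed the test in either direction. In 7 of the 10, every CSF1 OE mouse lay above every control mouse, as in 6.84% of all genes tested. The adapters Mavs and Tmem173 were not called, and their values in both genotypes overlapped.

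The 4 control and 4 CSF1 OE mice were F1 offspring of C57Bl/6 and CD1 parents, aged 14 or 15 days. In CSF1 OE mice, a TRE/tTA transgene makes secreted CSF1 in a subset of GFAP+ cells, so the cells that were sequenced were exposed to CSF1 and were not the cells meant to make it. The alleles carried by the control mice are not given in the sources used here. Each library came from the right hemisphere of 1 mouse, after perfusion, removal of myelin and pull-down with CD11b beads, and each mouse is named here by the number in the title of its library. CD11b marks microglia and also other myeloid cells.

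Total counts per library ran from 12908144 to 15475465 in control mice and from 12053259 to 14356532 in CSF1 OE mice. Levels are given as counts per 1000000 (CPM), with library sizes scaled by the TMM method, which corrects for differences in composition. The summed level of 10 microglial markers was 21514 to 38374 CPM in control mice and 27734 to 39175 CPM in CSF1 OE mice, with no marker at 0. Csf1, at 139 to 364 CPM against 167 to 400 CPM, and its receptor Csf1r did not pass the test (log2 fold changes of 0.19 and 0.05, edgeR adjusted p = 0.796 and 0.914). The summed markers of monocytes, neutrophils, border macrophages, dendritic cells, B cells, endothelial cells, glia and neurons all overlapped between genotypes. Siglech was in both the dendritic cell and the microglial list, so the dendritic sum is not specific to dendritic cells. Of endothelial markers 0 of 7 were higher in CSF1 OE mice (656 to 1106 against 318 to 774 CPM summed), as were 0 of 8 border macrophage and 0 of 5 neuron markers, while 6 of 7 neutrophil markers were higher (47.0 to 108 against 16.3 to 234 CPM summed). The T and NK cell markers, of which 8 of 9 were in the files and 1 passed the filter, did not overlap, at 0.470 to 1.44 CPM in control mice and 1.47 to 2.38 CPM in CSF1 OE mice. Among them Ncr1 was at 0 in every library, Cd3e had 1 count in 1 control library, and Klrb1c had 4 to 9 counts in control mice and 11 to 25 in CSF1 OE mice. Their part in the results was not tested.

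RNA helicases of the RIG-I family and sensors of cytosolic DNA are the means by which most cells, including microglia, notice viral or misplaced host nucleic acid. The RNA helicases act through MAVS on the mitochondrial surface, and much of DNA sensing acts through cGAS and STING, which Tmem173 encodes. Both routes activate IRF transcription factors and lead to type I interferon, which in turn induces many of the sensors themselves. TREX1 and ADAR hold these routes back by degrading DNA and by editing double-stranded RNA of the host. Mutations of TREX1, ADAR or IFIH1 cause Aicardi-Goutières syndrome, an inherited inflammatory disease of the brain.

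Interferon-induced genes often carry near their start a site bound by interferon-activated factors, whose core is GAAA, any 2 bases and GAAA. This core was searched on both strands in the RefSeq promoter windows of GRCm38.p6, from 250 bases before to 50 after each start. The windows are those of a reference genome, and a match is a string of letters. Of the 10 genes, 6 had a window. Zbp1, Dhx58, Ifi204 and Tmem173 had none under these symbols and were not searched. Of the 6, Ddx58 and Ifih1 held the core. Over all genes, 3.44% of 32851 windows held it, and of the 10108 tested genes with a window, 3.82% did. Stretches of at most 30 bases around the core are given for these 2 sensors, because they are the members that hold it, with the core in capitals, 5′ to 3′ on the strand of the gene. Eif2ak2, Pydc3 and AI607873, genes of the wider pathway, are added because they hold the same core with unequal fold changes.
Ddx58, chr4:40239804-40239833, minus strand, core at bases 3 to 12 after the start, read on the opposite strand: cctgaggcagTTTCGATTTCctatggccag
Ifih1, chr2:62646206-62646233, minus strand, core at bases 33 to 42 after the start: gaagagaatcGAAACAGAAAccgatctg
Eif2ak2, chr17:78882535-78882564, minus strand, core at bases 19 to 28 after the start: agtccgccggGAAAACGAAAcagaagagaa
Pydc3, chr1:173673597-173673626, plus strand, core 58 to 49 bases before the start: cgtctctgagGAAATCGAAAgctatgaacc
AI607873, chr1:173741831-173741860, minus strand, core 41 to 32 bases before the start: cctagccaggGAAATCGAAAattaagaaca
Mavs, Aim2, Trex1 and Adar held no such core in their windows. Only exact matches were counted, so a near match, such as that in a window of Adar, was not. Of the pathway genes, 11 of 77 tested genes with a window held the core. Of these 11, 10 had a higher level in CSF1 OE than in control mice (log2 fold changes of -0.01 to 1.44). With or without the core, 72 of the 95 tested pathway genes were higher. Ifi203, Mndal, AI607873, Pydc3 and Mnda, all among the 11, belong to 1 family and cluster. Whether the core bears on the level was not tested. Pydc3 and AI607873, 2 genes of 1 family and cluster, carry the same 10 bases at the core and had log2 fold changes of 1.44 and -0.01.

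**Figure D1:**
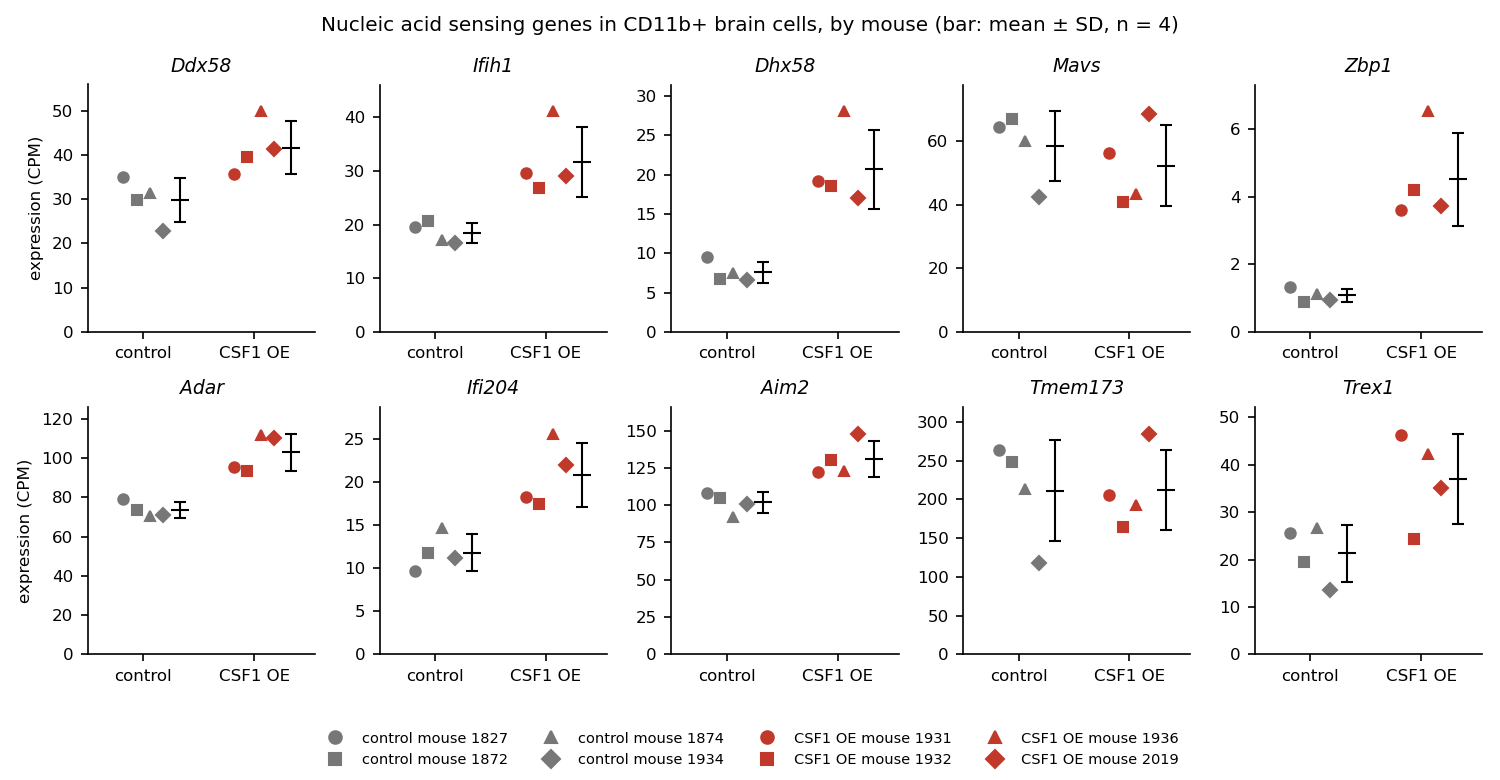
Level of each of the 10 genes in every mouse, in CPM on a linear axis from 0, with 1 point per mouse and the mean and SD of the 4 mice of each genotype beside them. The CSF1 OE points sit above all control points in 7 panels, while those of Mavs, Tmem173 and Trex1 overlap.

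The effect of CSF1 OE on each gene was tested with edgeR across all 13407 genes, and a gene was called where its Benjamini-Hochberg adjusted p was under 0.05 and its fold change was under 0.7 or over the inverse of 0.7. Of the 10 genes, 2 were called, both higher, where 59 genes of all those tested were called, or 0.440%. Groups did not overlap, with CSF1 OE higher, for 7 of the 10 and for 6.84% of all genes tested. An unadjusted p under 0.05 with a higher level in CSF1 OE mice was found for 8 of the 10 and for 10.1% of all genes. The median log2 fold change was 0.628 over the 10 genes and -0.034 over all genes, and 9 of the 10 were higher in CSF1 OE mice where 44.8% of all genes were. With DESeq2 in place of edgeR, 5 of the 10 were called higher (Zbp1, Ifih1, Dhx58, Ifi204 and Trex1), beside 2.09% of the 12909 genes to which it gave an adjusted p. Fewer cells of a type and less RNA per cell cannot be told apart in these libraries.

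Zbp1 (chr2:173206612-173218923) encodes a protein that binds nucleic acid in the left-handed Z form and can start cell death through RIPK3. Its counts were 20, 13, 15 and 16 in control mice 1827, 1872, 1874 and 1934, and 44, 57, 96 and 42 in CSF1 OE mice 1931, 1932, 1936 and 2019. In CPM, the control mice were at 1.34, 0.899, 1.13 and 0.946 and the CSF1 OE mice at 3.61, 4.19, 6.54 and 3.72. The lowest CSF1 OE mouse lay well above the highest control mouse, and mouse 1936 was the highest of all. The mean was 1.08 ± 0.203 CPM (SD, n = 4) in control and 4.52 ± 1.37 CPM (SD, n = 4) in CSF1 OE mice. The log2 fold change was 2.06 with a standard error of 0.283 (edgeR adjusted p = 0.0365), the largest of the 10 and the one with the fewest counts behind it. The call was lost without mouse 1872, 1874, 1934, 1931, 1932 or 1936 (adjusted p from 0.0575 to 0.171), while the log2 fold change stayed between 1.83 and 2.18 whichever mouse was left out.

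Adar (chr3:89715022-89753446), whose interferon-induced isoform also binds Z-form RNA, edits adenosines in double-stranded RNA. The 4 control mice were at 79.1, 73.6, 70.5 and 70.9 CPM and the CSF1 OE mice at 95.2, 93.5, 112 and 110 CPM. Every CSF1 OE mouse was above every control mouse, and the spread within each genotype was small (73.5 ± 3.97 and 103 ± 9.51 CPM, SD, n = 4). Its log2 fold change of 0.48 (SE 0.0847) had an edgeR adjusted p of 0.0524 and a fold of 1.39, just short of both thresholds. Part of its exons, 1365 bases, overlap Chrnb2 on the opposite strand, which had a log2 fold change of -0.24, and reads of the 2 genes cannot be separated by strand in these libraries. The log2 ratio of Zbp1 to Adar within a library was -5.92 ± 0.19 in control and -4.50 ± 0.33 in CSF1 OE mice (SD, n = 4), with no overlap.

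Dhx58 (chr11:100694884-100704271) encodes LGP2, the family member without signalling domains, which regulates its 2 relatives. The control mice were at 9.54, 6.78, 7.48 and 6.56 CPM, from 98 to 142 counts, and the CSF1 OE mice at 19.2, 18.6, 28.1 and 17.0 CPM, from 192 to 413 counts. The lowest CSF1 OE value was above the highest control value, and mouse 1936 was again the highest. Its means were 7.59 ± 1.36 and 20.7 ± 5.03 CPM (SD, n = 4), and its log2 fold change was 1.45 (SE 0.198, edgeR adjusted p = 0.0365). This call too was lost without any of the same 6 mice (adjusted p from 0.0548 to 0.171), with log2 fold changes from 1.27 to 1.58. An antisense gene, Dhx58os, shares 141 bases of its exons.

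Ifih1 (chr2:62595798-62646255) encodes MDA5, the sensor of long double-stranded RNA. Control mice were at 19.6, 20.6, 17.2 and 16.6 CPM and CSF1 OE mice at 29.6, 26.8, 41.2 and 29.0 CPM. The groups did not overlap, but the log2 fold change of 0.77 (SE 0.151) was not called (edgeR adjusted p = 0.0558). Ddx58 (chr4:40203773-40239828) encodes RIG-I, the sensor of RNA with a triphosphate end. Its control mice were at 35.1, 29.9, 31.4 and 22.9 CPM and its CSF1 OE mice at 35.7, 39.6, 49.9 and 41.3 CPM. Its groups were separated by only the gap between control mouse 1827 and CSF1 OE mouse 1931. The log2 fold change was 0.48 (SE 0.150, edgeR adjusted p = 0.170).

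Mavs (chr2:131234063-131248025) encodes the mitochondrial adapter that RIG-I and MDA5 share. Control mice were at 64.5, 67.0, 60.2 and 42.5 CPM and CSF1 OE mice at 56.5, 41.0, 43.5 and 68.7 CPM. The highest and the lowest of the 8 values were both CSF1 OE mice, and the log2 fold change was -0.16 (SE 0.195, edgeR adjusted p = 0.708). Dhx58 to Mavs had a log2 ratio of -2.92 ± 0.28 in control and -1.33 ± 0.59 in CSF1 OE mice (SD, n = 4), a difference of 1.59. For Ifih1 to Mavs the difference was 0.92, and for Ddx58 to Mavs it was 0.65. All 3 ratios were higher in every CSF1 OE mouse than in any control mouse. They share the values of Mavs, and the 3 sensors did not overlap between genotypes on their own. The ratios are therefore not independent results.

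Aim2 (chr1:173350879-173466040) encodes a sensor of double-stranded DNA that assembles an inflammasome with the adapter ASC, encoded by Pycard. Control mice were at 108, 105, 92.1 and 101 CPM and CSF1 OE mice at 122, 130, 123 and 148 CPM, with no overlap. Its log2 fold change was 0.36 (SE 0.0892, edgeR adjusted p = 0.0973). Ifi204 (chr1:173747293-173766943), of the same HIN-200 family and often taken as the mouse counterpart of human IFI16, was at 9.61, 11.8, 14.7 and 11.2 CPM in control mice. In CSF1 OE mice it was at 18.3, 17.4, 25.6 and 21.9 CPM, again without overlap. Its log2 fold change was 0.82 (SE 0.173, edgeR adjusted p = 0.0689).

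RSEM divides reads among near-identical copies, and the HIN-200 genes lie in 1 cluster of such copies on chromosome 1. Values of the single genes other than Aim2 are therefore less certain than their sum. Summed over the 11 HIN-200 genes in the files, the level was 230, 221, 233 and 225 CPM in control mice and 246, 266, 272 and 348 CPM in CSF1 OE mice. The groups did not overlap, and the log2 difference was 0.31 (exact permutation test, two-sided, p = 0.0286, the smallest p that 4 against 4 allows). Aim2 held from 39.6% to 49.4% of the sum, and over the 10 other genes the difference was 0.26 with an exact permutation p of 0.143. The sum without Aim2 was chosen after the values were seen.

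Tmem173 (chr18:35733679-35740554), which encodes STING, had the highest level per length of the 10. Control mice were at 264, 248, 213 and 118 CPM and CSF1 OE mice at 206, 165, 193 and 285 CPM. The means were 211 ± 65.3 and 212 ± 51.4 CPM (SD, n = 4), and the log2 fold change was 0.01 (SE 0.254, edgeR adjusted p = 0.987). The standard error allows a difference of either sign, and the sign turned to -0.17 without control mouse 1934 and to -0.16 without CSF1 OE mouse 2019. With the number in the title as a term in the fit, it was 0.45 (edgeR adjusted p = 0.0612). Trex1 (chr9:109057933-109059734) was at 25.5, 19.4, 26.7 and 13.5 CPM in control and at 46.2, 24.4, 42.3 and 35.1 CPM in CSF1 OE mice. CSF1 OE mouse 1932 alone fell within the control range. The log2 fold change was 0.80 (SE 0.252, edgeR adjusted p = 0.175). All 1147 exon bases of Trex1 are shared with Atrip on the same strand, so its counts depend on how RSEM divided the reads of the 2 genes, and Atrip had a log2 fold change of 0.10.

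Mavs and Tmem173 were high in the libraries where microglial markers were high, a relation examined after the values were seen. The summed microglial markers were at 37791, 38374, 33277 and 21514 CPM in control mice 1827, 1872, 1874 and 1934 and at 31489, 27972, 27734 and 39175 CPM in CSF1 OE mice 1931, 1932, 1936 and 2019. Across the 8 mice, log2 Tmem173 had r = 0.98 with the log2 marker sum (exact permutation p = 0.000149, adjusted over the 10 genes 0.00149) and rho = 0.95 (exact permutation p = 0.00114, adjusted 0.0112). Mavs had r = 0.91 (exact permutation p = 0.000719, adjusted 0.00360) and rho = 0.93 (exact permutation p = 0.00223, adjusted 0.0112). Without mice 1934 and 2019, the farthest from the median marker sum, r was 0.94 for Tmem173 and 0.95 for Mavs over 6 mice. For the other 8 genes r was between -0.08 and 0.34 and no adjusted p was below 0.939. Among the same 6 mice their r was between -0.57 and -0.91, and the 3 CSF1 OE mice of the 6 hold the 3 lowest marker sums. Each genotype and each range of title numbers holds 4 mice, too few for a correlation of its own, and what the relation rests on was not tested.

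Ratios of a sensor to its partner do not depend on the scaling of the libraries, the prior count aside, and 7 such pairs were compared. Besides the 3 ratios to Mavs and that of Zbp1 to Adar, which each had an exact permutation p of 0.0286 (two-sided) and an adjusted p of 0.05 over the 7, Trex1 to Tmem173 differed by 0.76 (exact p = 0.0571, adjusted 0.0800). Ifi204 to Tmem173 also differed by 0.76 (exact p = 0.0857, adjusted 0.100). Aim2 to Pycard differed by -0.11 (exact p = 0.800), with control mice from 0.33 to 1.61 and CSF1 OE mice from 0.60 to 1.17. With 4 against 4 no single ratio can go below 0.0286. With only 4 of the 7 ratios at that floor, no adjusted value could fall below 0.05, and none did. Leaving out a mouse cannot make the 4 ratios without overlap begin to overlap, so it does not test them. Without CSF1 OE mouse 2019, 5 of the 7 adjusted values were 0.0400, and with any 1 of the other 7 mice left out 0 of the 7 were under the threshold, with lowest adjusted values of 0.0667 to 0.120 for a control mouse left out.

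**Figure D2:**
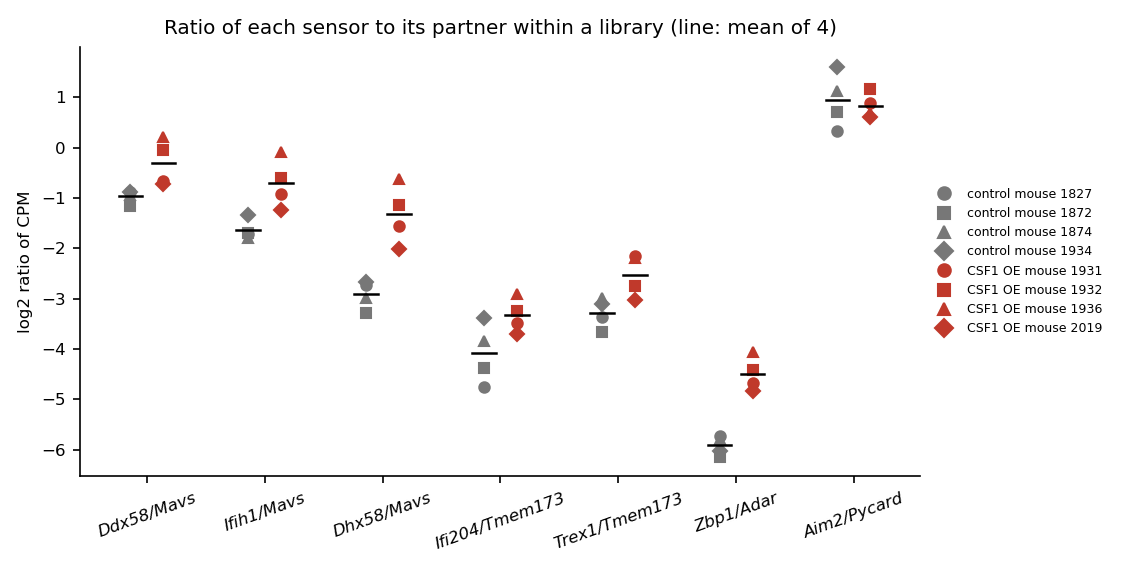
Log2 ratio of the CPM of each sensor to that of its partner in every library, with 1 point per mouse and a line at the mean of the 4 mice of a genotype. The CSF1 OE points lie above the control points for the 3 ratios to Mavs and for Zbp1 to Adar, and overlap for the other 3 pairs.

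Levels of different genes were compared as RPKM, which divides the CPM by the length of the exons in kilobases, with the exon lengths of GENCODE M21. The length covers all annotated exons of a gene, which can be longer than the transcript expressed, so the order is approximate. In control mice, Tmem173 was highest at 76.9 ± 23.8 RPKM (SD, n = 4), followed by Aim2 at 29.0, Trex1 at 18.6, Mavs at 17.5, Adar at 9.06, Ddx58 at 4.23, Ifi204 at 3.32, Dhx58 at 2.32 and Ifih1 at 2.27. Zbp1 was lowest at 0.306 ± 0.0574 RPKM. Neighbours in this order overlapped for Trex1 and Mavs and along the run from Ddx58 to Ifih1, and were apart elsewhere. In CSF1 OE mice the ends of the order were the same, with Tmem173 at 77.4 and Zbp1 at 1.28 RPKM, and Dhx58 stood at 6.34 RPKM, ahead of Ddx58 at 5.91 and Ifi204 at 5.84 RPKM. These 3 overlapped, as did Ifi204 and Ifih1, so their order in CSF1 OE mice was not resolved. Aim2 and Trex1 overlapped as well, as did Mavs and Adar.

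**Figure D3:**
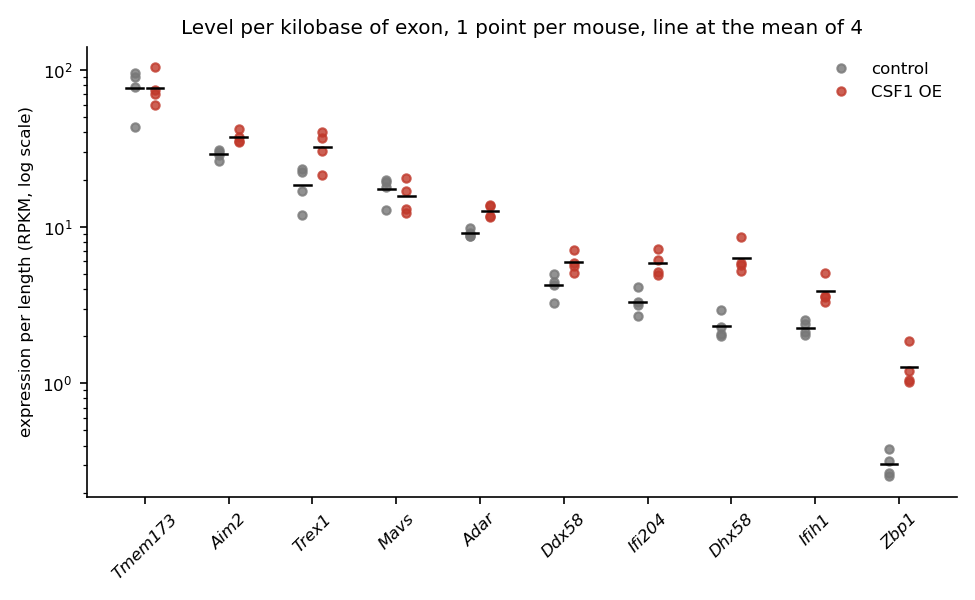
Level of the 10 genes per kilobase of exon in RPKM on a log axis, with 1 point per mouse, a line at the mean of 4 and the genes in the order of their control means. Tmem173 is highest and Zbp1 lowest in both genotypes.

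The highest and lowest mouse within each genotype were counted across the 10 genes, with no such count over all genes beside them. CSF1 OE mouse 1936 had the highest value of its genotype in 6 of the 10 genes and mouse 1932 the lowest in 6, while control mouse 1827 was highest in 6 and mouse 1934 lowest in 6. Without mouse 1936, 7 of the 10 genes were free of overlap, a count that leaving out a mouse cannot lower. So were 7.98% of all genes tested, with CSF1 OE higher. Numbers 1931 to 1936 belong to 3 CSF1 OE mice and 1 control mouse, and the others to 3 control mice and 1 CSF1 OE mouse. In the first range 9 of the 10 genes, and in the second all 10, were higher in all CSF1 OE mice than in all control mice. With 1 mouse against 3 this was common, at 35.2% of all genes tested in the first range and 32.3% in the second. Tmem173 was so in both, with log2 differences of 0.66 and 0.24 on 1 mouse against 3. Zbp1 differed by 2.13 and 1.62, Dhx58 by 1.70 and 1.10, and Mavs overlapped in the first range (0.13). What the numbers stand for is not given, so they are no batch that can be named.

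Other genes of nucleic acid sensing were taken from a list of 100, of which 98 were in the files and 95 were tested. Of the 95, 72 were higher and 23 lower in CSF1 OE mice, with a median log2 fold change of 0.14. Over all genes tested, 44.8% were higher. Of the 95, 1 was called, beside 0.440% of all genes. The call was Eif2ak2, which encodes PKR, a kinase that binds double-stranded RNA and stops translation (35.8 ± 3.54 to 67.5 ± 13.1 CPM, log2 fold change 0.91, SE 0.143, edgeR adjusted p = 0.0431). Groups did not overlap for 19 of the 95, all higher in CSF1 OE mice, beside 6.84% of all genes. With DESeq2, 11 were called, all higher, beside 2.09% of the genes it tested. With 1 mouse left out, between 0 and 4 genes of the list were called, and Eif2ak2 was the call with all 8 mice.

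Among cofactors and helicases of RNA sensing, 9 of 15 were higher and 6 lower, from Eif2ak2 down to Rnf135, a ubiquitin ligase of RIG-I (-0.32, SE 0.219). In RNA surveillance and turnover, 7 of 8 were higher, with Rnaseh2b, a subunit of RNase H2, at 0.33 (SE 0.166), and the exception was the editing enzyme Adarb1 at -0.19 (SE 0.206). In DNA sensing and its control, 14 of 19 were higher, from Rhbdf2, a STING cofactor, at 0.63 (SE 0.177) to Zdhhc1 at -0.34 (SE 0.154). With edgeR none of these genes but Eif2ak2 was called, beside 0.440% of all genes. An unadjusted p under 0.05 was found for 5, 2 and 5 genes of the 3 groups, all higher, beside 10.1% of all genes. DESeq2 called 2, 0 and 1, all higher, beside 2.09% of the genes it tested. The medians of the 3 groups were 0.13, 0.26 and 0.20.

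The 7 tested HIN-200 relatives of Ifi204 and Aim2 had the highest median of the role groups, 0.88, with 6 of 7 higher. Groups did not overlap for 3 of them, all higher, beside 6.84% of all genes. None was called with edgeR, and 4 had an unadjusted p under 0.05, all higher, beside 10.1% of all genes. DESeq2 called 3 higher, beside 2.09% of the genes it tested. Pydc3, a gene of the cluster with few counts (14 to 67), had a log2 fold change of 1.44 (SE 0.346) and AI607873, the relative with the highest CPM, had -0.01 (SE 0.195). Kinases, adapters and transcription factors downstream of the sensors had a median of 0.02, and 9 of 15 were higher, with 0 called by edgeR. An unadjusted p under 0.05 was found for 3, of which 2 were higher, beside 10.1% of all genes. DESeq2 called 1, higher, beside 2.09% of the genes it tested. Of the 15, Irf7, the interferon-induced transcription factor, had means of 5.69 ± 2.12 and 22.1 ± 10.9 CPM (SD, n = 4). Its log2 fold change was 1.96 (SE 0.375, edgeR adjusted p = 0.0558). Tbkbp1, an adapter of the kinase TBK1, was lowest at -0.39 (SE 0.120).

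Of inhibitors of sensing, 9 of 12 were higher, between Nlrc5 at 1.60 (SE 0.371) and the ubiquitin ligase gene Rnf125 at -0.63 (SE 0.373). NLRC5 is also the activator of MHC class I genes. All 11 genes of the ZBP1 death pathway and the AIM2 inflammasome were higher, with a median of only 0.14. They ran from Casp4, the sensor of intracellular lipopolysaccharide, at 0.96 (SE 0.197) to Ripk3, the kinase that ZBP1 engages, at 0.01 (SE 0.123). Pycard was at 0.40 (SE 0.291). The endosomal receptors and their adapters were higher in 7 of 8 cases, from Ticam1 at 0.36 (SE 0.229) to Tlr8 at -0.41 (SE 0.272), with no gene free of overlap. Across these 3 groups edgeR called none. DESeq2 called 2 inhibitors and 2 genes of the ZBP1 and AIM2 group, all higher, and none of the endosomal group. It called 2.09% of the genes it tested higher. An unadjusted edgeR p under 0.05 was found for 4 inhibitors, for 2 genes of the ZBP1 and AIM2 group and for 0 of the endosomal group. All of these were higher, beside 10.1% of all genes.

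**Figure D4:**
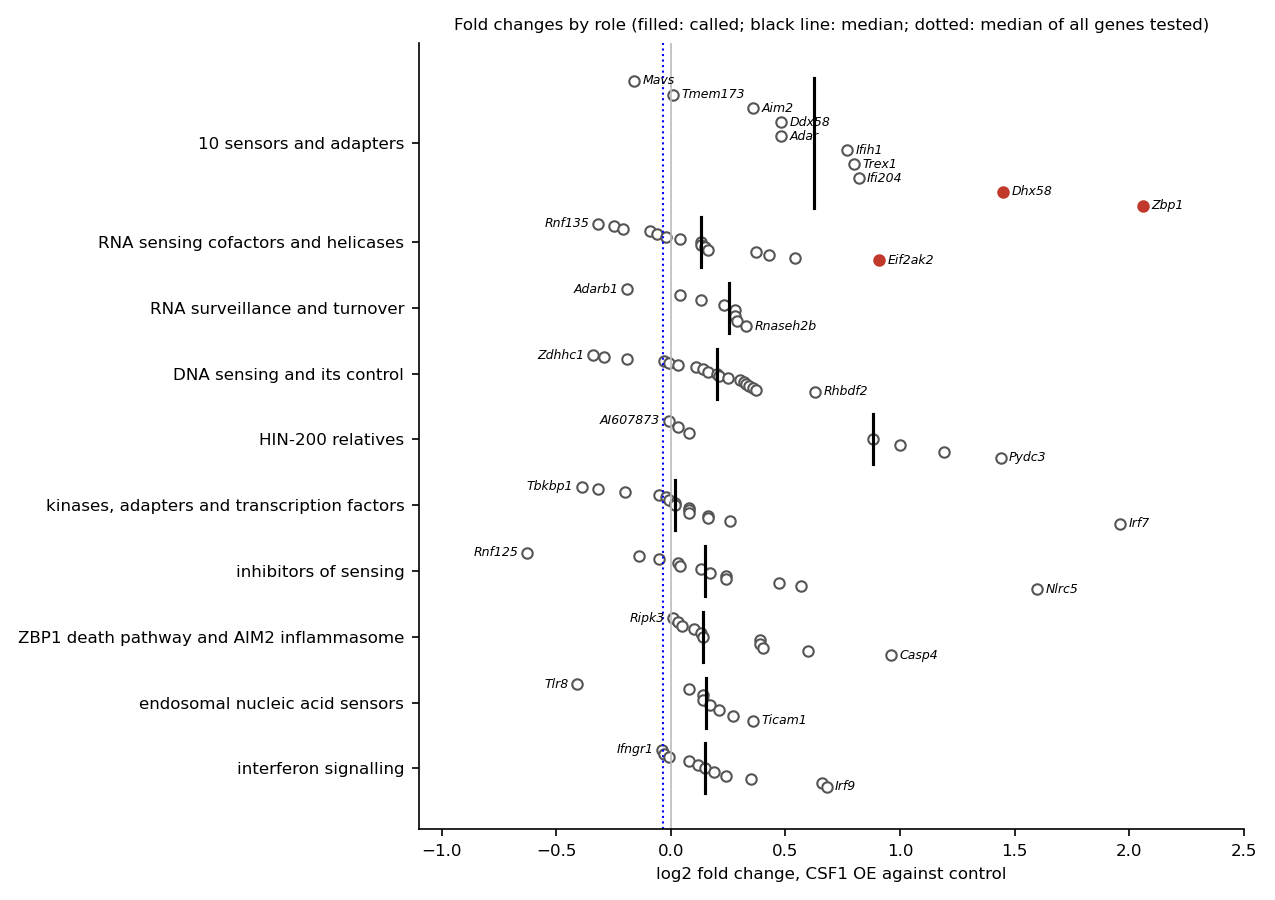
Log2 fold change of CSF1 OE against control mice for the 10 genes and for each role group of the wider list, with 1 point per gene, filled where called, a black line at the median of a group and a dotted line at the median of all genes tested (-0.034). The highest and lowest gene of each group are named, and the 3 called genes are Zbp1, Dhx58 and Eif2ak2.

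Interferon transcripts themselves were hardly detected. Of 21 type I, II and III interferon genes, 16 had no count in any library, and none passed the filter. Ifnb1, interferon beta, had 5, 0, 1 and 2 counts in control and 4, 8, 7 and 1 counts in CSF1 OE mice, and these overlap. A count of 0 allows up to 3 counts, which is 0.194 to 0.249 CPM in these libraries, and this covers counting error only. Of 11 genes of interferon signalling, 8 were higher and edgeR called none. An unadjusted p under 0.05 was found for 4, all higher, beside 10.1% of all genes. DESeq2 called 2, both higher, beside 2.09% of the genes it tested. The fold changes ran from Irf9, part of the interferon-activated ISGF3 complex, at 0.68 (SE 0.146, 45.2 ± 7.20 to 72.3 ± 11.2 CPM) to Ifngr1, a receptor chain for interferon gamma, at -0.04 (SE 0.210).

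The genes most like Zbp1 across the 8 libraries, by Pearson correlation of log2 CPM with 13406 other genes, were Dhx58 (0.994), Rpl7 (0.991), Rps3a1 (0.990), Rps15a (0.989) and Rps23 (0.986). Apart from Dhx58, these encode ribosomal proteins, and their CPM values are far higher. Rps15a, for example, was at 202 ± 14.9 and 301 ± 16.5 CPM (log2 fold change 0.58, SE 0.0842, edgeR adjusted p = 0.0398). All 5 separate the genotypes, so the likeness holds the difference between genotypes as well as that between mice. When each genotype's mean was subtracted, the genes closest to Zbp1 were Rtp4 (0.957), Irf7 (0.956), Gbp3 (0.956), Bcl7c (0.95) and Dhx58 (0.947). Rtp4, Irf7 and Gbp3 are known to be induced by interferon, and Bcl7c, a subunit of a chromatin remodelling complex, had a log2 fold change of -0.08 (SE 0.202). Dhx58 alone was in both lists. Among the other members, the correlation of deviations with Zbp1 was 0.78 for Ddx58, 0.69 for Ifih1, 0.58 for Adar, 0.38 for Trex1, 0.34 for Ifi204, 0.04 for Tmem173, -0.25 for Aim2 and -0.28 for Mavs. These values rest on 8 libraries and share the scaling of those libraries.

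**Figure D5:**
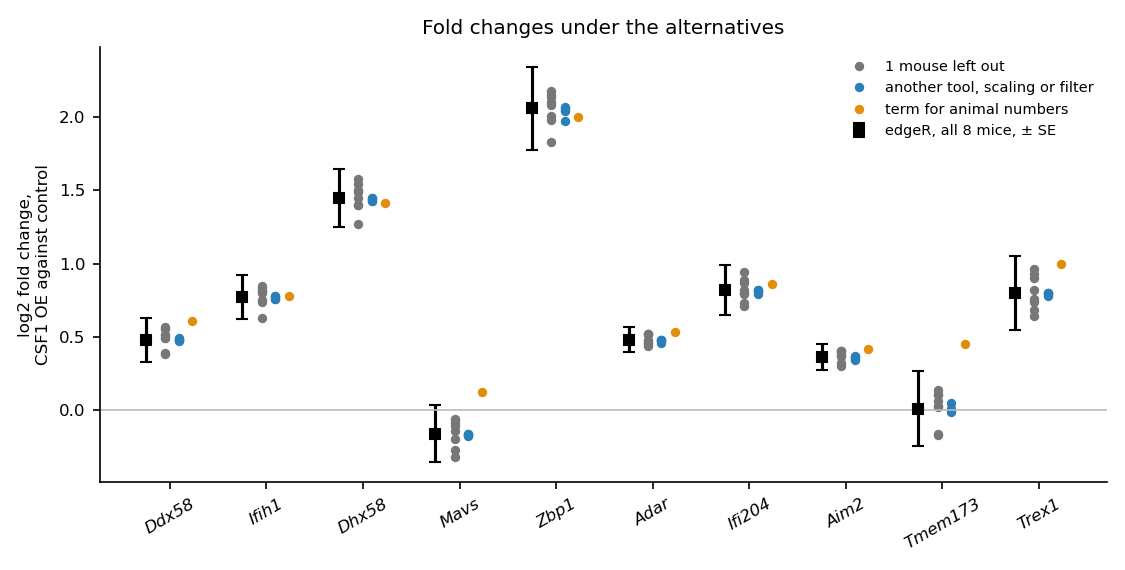
Log2 fold change of the 10 genes with all 8 mice (black squares with standard errors), with each mouse left out (grey), with another tool, scaling or filter (blue) and with the number in the title as a term with 2 ranges (orange). Zbp1 lies between 1.83 and 2.18 and Dhx58 between 1.27 and 1.58 under the alternatives shown, and the values of Mavs and Tmem173 fall on both sides of 0.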

How the data were processed

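RNA of CD11b+ cells was sequenced from 8 mice (TruSeq RNA v2, which keeps no strand, 1 library per mouse). Reads were mapped with Bowtie 1.0.0, and the authors estimated expected counts per gene with RSEM 1.2.7, deposited without normalization; the build in the submitters' processing notes is mm10. A deposited table of normalized values (signal on the count scale) is the authors' expected counts divided by 1 factor per library.

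Expected counts were rounded, filtered (filterByExpr), scaled (TMM) and tested with edgeR 4.0.16, quasi-likelihood, over 13407 genes with Benjamini-Hochberg adjustment; the study used EBSeq, whose fold thresholds of 0.7 and its inverse were kept. The biological coefficient of variation was 0.228. The scripts were tested on simulated data. Log2 ratios used a prior count of 2. The smallest exact p was 0.0286, over 70 assignments. DESeq2 1.42.0, limma 3.58.1 (pseudocount 1), other scalings, filters and thresholds, a term for the numbers in the titles (1931 to 1936 against the rest) and leaving out each mouse were tried.

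The 10 genes and all lists were chosen with earlier results of these data known. Named from the lists were the largest rise and fall of each role group, called genes and ratio partners, and from all genes the 5 most like Zbp1 on each measure. Of the listed HIN-200 relatives, Ifi207 and Ifi208 appear under their file symbols AI607873 and Pydc3. Promoters came from RefSeq, GRCm38.p6, and positions from GENCODE M21. Libraries were grouped by title. Different mice are separate animals, so the spread is between animals.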

Additional observations from a re-analysis of the deposited data

How the results depend on the processing

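Zbp1 and Dhx58 kept their direction under all 14 alternatives and stayed called in 8 of them. The number of the 10 genes called was 5 with DESeq2, 6 with a term for 2 ranges of title numbers (Zbp1, Ddx58, Ifih1, Dhx58, Ifi204 and Adar), 0 at an adjusted p under 0.01 and 0 to 3 with 1 mouse left out. It was 0 without mouse 1872, 1874, 1934, 1931, 1932 or 1936, where 8 of the 10 had an unadjusted p under 0.05 in edgeR each time, 2 without 2019, and 3 without 1827. Over all genes the count of calls was 427 with DESeq2, 19 with upper-quartile scaling, 105 with limma, 1274 with the term for title numbers, 3 at an adjusted p under 0.01 and 3 to 164 with 1 mouse left out. Calls were 52 higher and 7 lower with edgeR, 270 and 157 with DESeq2, and 303 and 971 with the term for title numbers. Of the pathway genes, 11 were called with DESeq2, 0 with upper-quartile scaling, 2 with limma, 10 with the term for title numbers, 0 at an adjusted p under 0.01 and 0 to 4 with 1 mouse left out. Mavs turned to 0.12 with the term for title numbers, and Tmem173 to 0.45 with that term (adjusted p = 0.0612), to -0.01 with upper-quartile scaling and to between -0.17 and 0.14 with 1 mouse left out. The ratios ranged, with 1 mouse left out, from 0.48 to 0.79 for Ddx58 to Mavs, 0.71 to 1.10 for Ifih1, 1.35 to 1.81 for Dhx58, 0.54 to 1.0 for Ifi204 to Tmem173, 0.63 to 0.92 for Trex1, 1.28 to 1.54 for Zbp1 to Adar and -0.31 to 0.12 for Aim2 to Pycard. The HIN-200 sum gave 0.26 without Aim2 and 0.20 to 0.37 with 1 mouse left out (exact p = 0.0571 without any 1 control mouse). The HIN-200 sums did not overlap with all 8 mice, so leaving out a mouse could not make them overlap. The smallest exact permutation p of 3 against 4 mice is 0.0286, and this was the value without any 1 CSF1 OE mouse. The cause of these changes was not tested. The labels give no pairing of control with CSF1 OE mice, such as by litter, so no paired analysis was made. Zbp1 rests on 13 to 96 counts per library, which limits its precision.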
